A study of Mus musculus with 2 samples.

Results

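Retinoic acid is a small lipid signal that cells make from retinol and that patterns the hindbrain, somites and heart. Retinol enters cells from the blood, where a binding protein carries it, and Stra6 is the membrane receptor for that carrier. Retinol dehydrogenases turn retinol into retinal and Dhrs3 turns retinal back into retinol. Aldh1a2 is the enzyme that makes retinoic acid from retinal in the early embryo, and Cyp26a1, Cyp26b1 and Cyp26c1 are cytochrome P450 enzymes that break it down. Crabp1 and Crabp2 bind retinoic acid in the cytosol, and Rarb is a nuclear receptor whose own gene responds to it. These 9 genes, chosen by name for their roles in synthesis, degradation, uptake, binding and reception, were described here out of 18131 genes measured.

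RNA was sequenced from single cells of E9.5 embryos of the C57BL/6 strain, in the region from which the cardiac neural crest arises, dissected from the mid otic placode to the back of the 4th somite. There were 2 libraries, 1 per genotype. The WT library was Prdm6+/+; Wnt1-Cre2; ZsGreen1 and the KO library was Prdm6f/f; Wnt1-Cre2; ZsGreen1, so both carried the Cre transgene and the green reporter, and Cre, driven by Wnt1, acts in neural crest cells (NCCs) and the dorsal neural tube and not in the other cells of the dissection. The libraries pooled several barcoded embryos, and no embryo was told apart here, so every value below is 1 library against 1 library with no replicate, no test across embryos was possible, and all intervals are 95% intervals for counting error alone.

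The WT library held 11958 cells and 20781384 unique molecular identifiers (UMIs, counts of captured transcripts), with a median of 1597 per cell. The KO library held 9765 cells and 18936857 UMIs, with a median of 1703. A total of 26 cell barcodes occurred in both. The samples were labelled as cardiac NCCs, but cells with heart muscle, blood, vessel, somite and neural tube markers were present in both, and migrating NCC-like cells were 2.09% of the WT and 1.69% of the KO library. Prdm6, the deleted gene, had 104 UMIs in WT and 59 in KO, or a log2 ratio (here always KO over WT unless other groups are named) of −0.68 (−1.17 to −0.21). Tags from the 3′ end need not tell the deleted from the intact allele, and the cells outside the Wnt1 lineage keep the gene. Cells were placed in classes by marker genes, none of which was a retinoic acid gene. Of all cells, 56.8% of WT and 61.8% of KO passed no gate, and 842 and 623 cells that passed several gates were left out of the classes. Levels are UMIs of a gene per 1000000 UMIs of the class (CPM), and 13 classes with at least 50 cells in each library were ordered.

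Members of this pathway lie on 6 chromosomes of mouse build GRCm38. Cyp26c1 (chr19:37685581-37693398) and Cyp26a1 (chr19:37697798-37701536) are neighbours on the plus strand, 4399 bases apart. Aldh1a2 (chr9:71215789-71296243), Stra6 (chr9:58063788-58153996) and Crabp1 (chr9:54764748-54773110) share chromosome 9 and its plus strand. Cyp26b1 (chr6:84571414-84593908) and Rarb (chr14:16430839-16819156) are on minus strands, and Crabp2 (chr3:87948666-87953376) and Dhrs3 (chr4:144892827-144928209) on plus strands. Rarb overlaps Top2b on the opposite strand and Stra6 overlaps Ccdc33, and how the authors' counting treated overlapping genes is not given in the sources used here.

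Retinoic acid receptors bind direct repeats of a hexamer, and the promoter windows of the members (250 bases before to 50 after the start of each RefSeq transcript, build GRCm38.p6) were searched for them. The hexamers searched were AGGTCA itself, the form AGTTCA, the form GGGTCA and the form GGTTCA, any of them followed by any of them on either strand with 1, 2 or 5 bases between them. A window was found for 8 of the 9 members, all but Crabp2, and 2 of these 8, Rarb and Cyp26a1, held such a repeat, in both with a spacing of 5. Of 32851 promoter windows, 32 (0.0974%) held a repeat spaced by 5 and 193 (0.588%) one with any of the 3 spacings, while a single one of the hexamers was in 43.7%. The stretches are shown because they are the 2 members with the repeat, 5′ to 3′ on the strand of the gene, with the repeat and its spacer in capitals.
Rarb, chr14:16575483-16575559, minus strand: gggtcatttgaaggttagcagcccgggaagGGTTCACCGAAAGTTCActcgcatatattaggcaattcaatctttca
Cyp26a1, chr19:37697746-37697807, plus strand: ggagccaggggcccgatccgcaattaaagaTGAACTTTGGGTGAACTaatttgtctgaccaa
The Rarb repeat spanned the bases 53 to 37 before the start. The Cyp26a1 repeat spanned the bases 32 to 16 before the start and lies on the other strand, where it reads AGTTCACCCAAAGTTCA. A match is a stretch of letters and not a measured binding site, and binding was not measured in this study's single-cell data.

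Over all cells, Aldh1a2 had 992 UMIs in WT and 755 in KO (47.7 and 39.9 CPM, log2 ratio −0.26, −0.40 to −0.12). Stra6 had 1108 and 818 UMIs (53.3 and 43.2 CPM, −0.30, −0.44 to −0.17), and Rarb 579 and 447 (27.9 and 23.6 CPM, −0.24, −0.42 to −0.06). The synthesis enzyme, the uptake receptor and the nuclear receptor were thus each lower in the KO library than in the WT library. On the other side, Cyp26b1 had 1373 and 1399 UMIs (66.1 and 73.9 CPM, 0.16, 0.05 to 0.27, but 0.073 with the KO classes weighted to the WT make-up), and Crabp2 had 8390 and 9525 (404 and 503 CPM, 0.32, 0.27 to 0.36). Crabp1 had 31361 and 31371 UMIs (1509 and 1657 CPM, 0.13, 0.11 to 0.16), but its ratio had the opposite sign, −0.14 (−0.18 to −0.10), in the neural tube-, floor plate-, neuron- and NCC-like classes summed.

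For comparison, over the 10513 genes with at least 200 UMIs, the median log2 ratio was −0.06 and the central 90% ran from −0.43 to 0.30. None of the 6 members with at least 200 UMIs (0 of 6) passed a log2 ratio of 0.5 in either direction, which 0.666% of all genes did in the higher and 3.31% in the lower direction. Crabp2, at percentile 96.0 of these ratios, lay past the upper end of that central range, and the other 5 lay within it, the lowest being Stra6 at percentile 12.0. The other 3 members were too sparse for this comparison. Cyp26a1 had 105 UMIs in WT and 86 in KO, Dhrs3 had 115 and 79, and Cyp26c1 had 2 and 4.

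**Figure D1:**
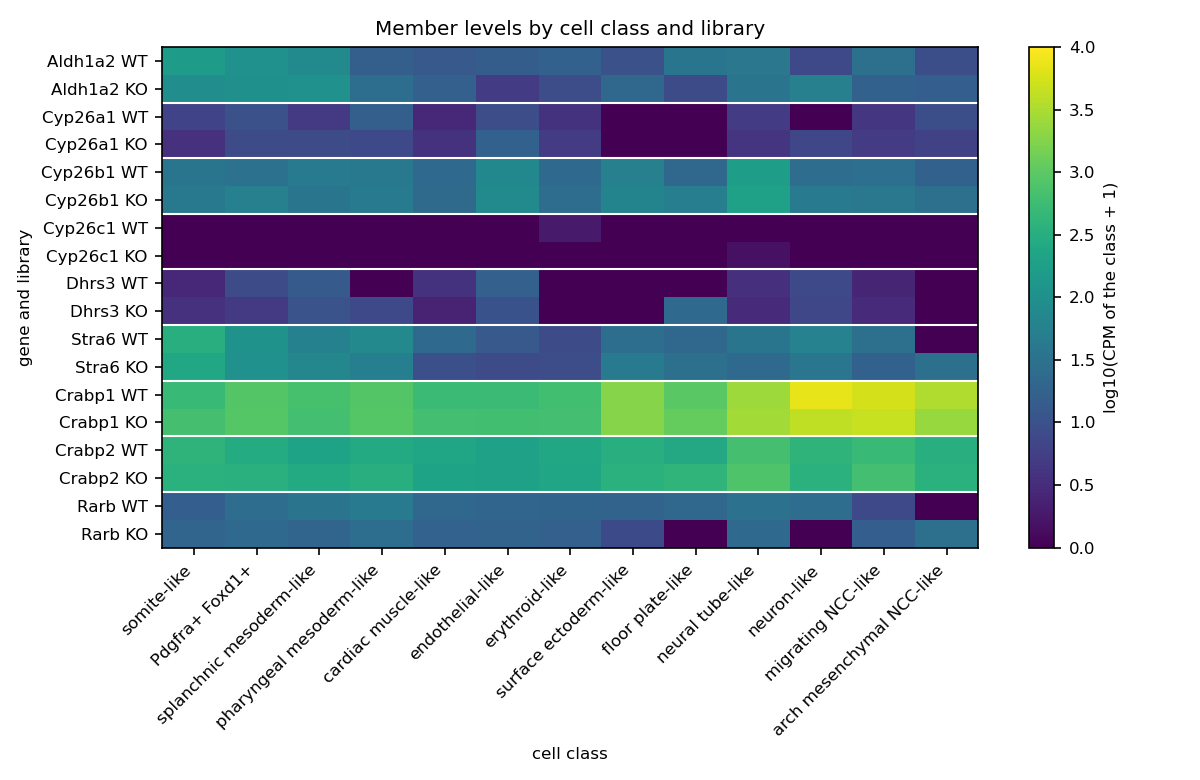
Level of each member in each cell class, for WT and KO, with CPM drawn on a log scale. Crabp1 was highest in neuron-like and migrating NCC-like cells, Cyp26b1 in neural tube-like cells (174 and 194 CPM), and Stra6 in somite-like cells (334 and 241 CPM).

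Background had to be read first. Erythroid-like cells, recognised by embryonic globins, are not a known site of this pathway, and what they showed was taken as the level that free RNA gives any droplet. Crabp1 stood at 619.6 CPM (573 to 668) in WT and 647 (579 to 721) in KO erythroid-like cells, and 46.4% and 44.3% of these cells had a Crabp1 UMI after every cell was thinned to 1000 UMIs. A Crabp1 UMI in a cell of these libraries therefore did not mark a Crabp1-expressing cell. The other members had lower erythroid-like levels, in WT and KO: Crabp2 237 and 228 CPM, Cyp26b1 22.4 and 25.6, Rarb 18.6 and 15.7, Aldh1a2 16.8 and 7.87, Stra6 7.45 and 7.87. Dhrs3 had 0 UMIs in both, for which the limit of 3 counts is 2.79 CPM in WT and 5.90 in KO. Hemoglobin and other erythroid marker UMIs in the remaining classes were higher in WT (3085 to 5340 CPM) than in KO (1273 to 2508 CPM), and the part of this in the values below was not tested.

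Aldh1a2, the synthesis enzyme, had its 3 highest levels in somite-like, Pdgfra+ Foxd1+ and splanchnic mesoderm-like cells in both libraries. In WT it was highest in somite-like cells, with 88 UMIs in 254 cells (159.8 CPM, 128 to 197), followed by Pdgfra+ Foxd1+ cells (72 UMIs, 104 CPM, 81.4 to 131) and splanchnic mesoderm-like cells (63 UMIs, 78.1 CPM, 60.0 to 99.9). In KO these same classes had 33, 53 and 55 UMIs, or 90.5 CPM (62.3 to 127), 99.6 (74.6 to 130.2) and 105 (79.3 to 137). The KO intervals overlapped each other, so no KO class could be placed above the other two. The level in neural tube-like cells was 37.7 CPM (29.5 to 47.4) in WT and 33.4 (25.9 to 42.4) in KO, above the erythroid-like level in both, while the level in cardiac muscle-like cells, 12.2 and 15.7 CPM, was near it. Neuron-like cells, on few UMIs, had 1 in WT (6.54 CPM, 0.17 to 36.4) and 9 in KO (54.2 CPM, 24.8 to 103), where they ranked above the neural tube-like cells with overlapping intervals. Their ratio was 3.05 (0.20 to 8.50), opposite in sign to the somite-like one, but the class was under the minimum of 30 UMIs.

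Among the 4 classes with enough Aldh1a2 UMIs for a ratio, the somite-like interval excluded 0 under the gate used. There the log2 ratio was −0.82 (−1.44 to −0.23), at percentile 3.62 of the 5412 genes with at least 30 UMIs in these cells, whose central 90% ran from −0.72 to 0.64. Neither held under every gate. The ratio was −0.62 (−1.30 to 0.0074) with a gate 1 marker UMI stricter and −0.51 (−1.39 to 0.30) with gates on thinned cells, both inside the central 90% of their genes, and −1.03 (−1.62 to −0.48) when cells that passed several gates went to their highest class. The other ratios were −0.18 in neural tube-like cells, −0.06 in Pdgfra+ Foxd1+ cells and 0.43 (−0.12 to 0.98) in splanchnic mesoderm-like cells. The splanchnic mesoderm-like ratio was 0.84 (0.16 to 1.52) with the stricter gate and 0.82 (−0.09 to 1.73) with gates on thinned cells. Both were past the upper end of the central 90% of their genes. It was 0.52 (0.03 to 1.01) when cells that passed several gates went to their highest class. The neural tube-like and Pdgfra+ Foxd1+ intervals included 0 under every gate. In somite-like cells, a fixed number of UMIs per cell gave the same order of the libraries. Aldh1a2 was then in 14.3% (10.2 to 19.2) of WT and 9.49% (5.41 to 15.2) of KO somite-like cells, against 1.57% and 0.493% of erythroid-like cells.

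The make-up of the somite-like class itself moved with this value. Of its 8 markers with more than 1 UMI in each library, 4 were lower in KO. Myf5, which marks muscle precursors, stood at 1066 CPM in WT and 571 in KO somite-like cells, Uncx, of the caudal somite, at 114 and 60.4, Pax1, of the sclerotome, at 127 and 96.0, and Tcf15 at 396 and 337. The other 4 were higher, with Meox1 at 459 and 494, Foxc2, also of the sclerotome, at 212 and 236, Meox2 at 90.8 and 104 and Tbx18 at 79.9 and 90.5. Cells with a UMI of a Hox gene of groups 4 to 9 were 28.0% of WT and 15.8% of KO somite-like cells. The part of either in the Aldh1a2 ratio was not tested. Among somite-like cells with a Pax1 UMI, Aldh1a2 was at 292 CPM (197 to 417) in WT and 125 (54.0 to 246) in KO, and among those with a Meox1 UMI at 153 (115 to 198) and 107 (70.8 to 154). The WT cells with an Uncx UMI had 328 CPM (223 to 465). In both libraries the splanchnic mesoderm-like cells with a Foxf1 UMI (118 CPM in WT, 161 in KO) or an Osr1 UMI (107 and 167) had more Aldh1a2 than those with a Hand1 UMI (30.2 and 16.2, on 5 and 1 UMIs).

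Stra6, the uptake receptor, was highest in somite-like cells in both libraries. It had 184 UMIs in WT somite-like cells (334 CPM, 288 to 386) and 88 in KO (241 CPM, 194 to 297), and it was among the 10 genes that led the somite-like class, although it was no marker. Pdgfra+ Foxd1+ cells came next with 107 CPM (83.9 to 134) in WT and 103 (77.8 to 134) in KO. In neither library did the somite-like interval overlap that of any other ordered class. The following classes, splanchnic mesoderm-like (55.8 and 70.8 CPM) and pharyngeal mesoderm-like (76.1 and 53.0 CPM), overlapped their neighbours in the order. After thinning, 27.0% (21.6 to 32.9) of WT and 16.5% (11.0 to 23.2) of KO somite-like cells had a Stra6 UMI, against 0.589% and 0% (exact upper limit 1.80%) of erythroid-like cells.

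Stra6 was lower in KO in 5 of the 6 classes with at least 30 UMIs. The log2 ratio was −0.47 (−0.85 to −0.09) in somite-like cells and −0.66 (−1.24 to −0.09) in neural tube-like cells, where 67 UMIs in WT faced 44 in KO. The somite-like value was at percentile 13.2 of the genes of its class, inside their central 90%, and the neural tube-like value at percentile 4.57, just past the lower end. The somite-like ratio was −0.33 (−0.75 to 0.066) with the stricter gate and −0.25 (−0.84 to 0.31) with gates on thinned cells. The neural tube-like interval included 0 under each of the 3 other gates, with ratios of −0.68, −0.42 and −0.48. Stra6 had 24 UMIs in the cardiac muscle-like cells of WT and 6 in those of KO (22.5 and 8.58 CPM, −1.39, −2.97 to −0.06), the 1 value past a log2 ratio of 1 among the 49 pairs of a member and an ordered class with at least 30 UMIs. Over all genes, 0.847% of such pairs were higher and 1.53% lower in KO past that ratio. In cardiac muscle-like cells alone 2.03% of 7377 genes were lower in KO past that ratio, the ratio was between −0.85 and −0.71 under the 3 other gates, with intervals that included 0, and neither cardiac level was above the erythroid-like level beyond its interval. The ratio was −0.05 in Pdgfra+ Foxd1+ cells and 0.34 in splanchnic mesoderm-like cells. Somite-like cells with a Myf5 UMI had 414 CPM (347 to 490.4) of Stra6 in WT and 409.7 (317 to 521) in KO, while those with a Foxc2 UMI had 278 (208 to 364) and 132 (79.6 to 207). Cells with Myf5, the subset where Stra6 was highest, were 56.3% of WT and 39.9% of KO somite-like cells, and the part of this share in the Stra6 ratio was not tested.

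**Figure D2:**
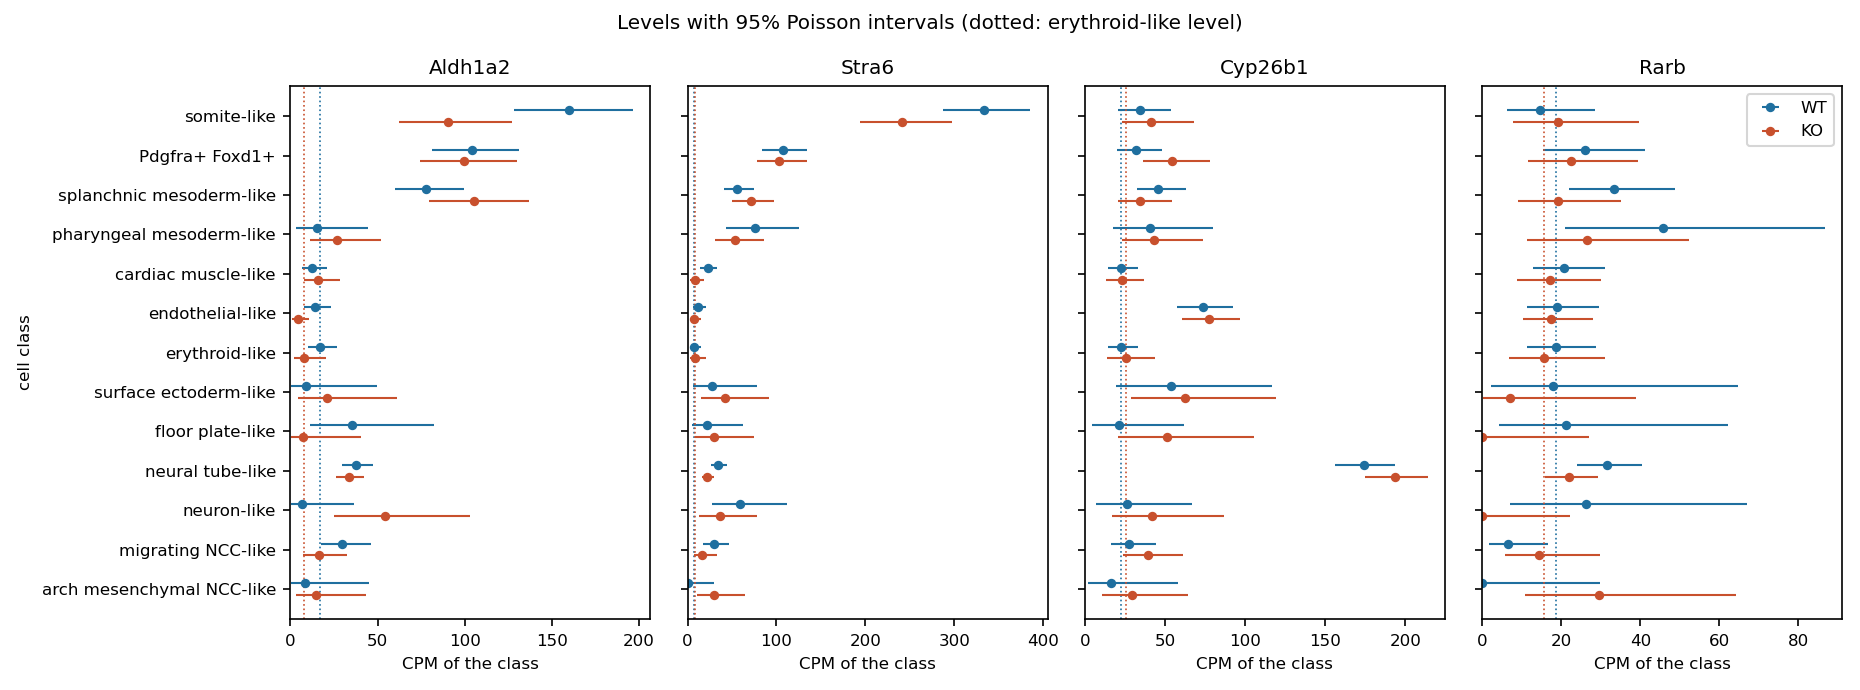
CPM of Aldh1a2, Stra6, Cyp26b1 and Rarb by cell class, 1 point per library with its 95% Poisson interval and the erythroid-like level dotted. The WT and KO Stra6 points of somite-like cells (334 and 241 CPM) lie right of all other classes, and the Aldh1a2 points of somite-like cells are 159.8 CPM in WT and 90.5 in KO.

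Among the degrading enzymes, Cyp26b1 was the one with UMIs enough to order. Neural tube-like cells held 337 UMIs in WT (174 CPM, 156 to 194) and 389 in KO (194 CPM, 175 to 214). Endothelial-like cells were second among the ordered classes with 74 and 75 UMIs (73.5 CPM, 57.7 to 92.3, and 77.4, 60.9 to 97.1). Of the 13 classes, these 2 were above the erythroid-like level beyond both intervals in both libraries. Among the classes under 50 cells, otic placode-like cells had 88.1 and 122.5 CPM on 3 and 6 UMIs. Pharyngeal and foregut endoderm-like cells had 94.5 and 45.5 CPM on 7 and 3 UMIs. Between the libraries, the neural tube-like cells differed by a log2 ratio of 0.16 (−0.06 to 0.37). With gates on thinned cells it was 0.34 (0.04 to 0.64), while the interval included 0 under the other gates. Under the gate used, in no ordered class did the interval of the Cyp26b1 ratio exclude 0, while 7 of the 8 ratios were above 0. Signs changed with the stricter gate, to −0.16 in endothelial-like cells and, from −0.41, to 0.21 in splanchnic mesoderm-like cells. The Pdgfra+ Foxd1+ ratio of 0.78 (−0.07 to 1.65) was at percentile 97.6, past its class's central 90%. It was inside that range under the other gates, at 0.0090, 0.54 and 0.57.

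A subset of the neural tube-like cells, 85 in WT and 87 in KO, passed the dorsal neural tube and roof plate gate. It asked for at least 2 of the markers Wnt1, Wnt3a, Lmx1a, Msx3, Olig3 and Atoh1. Msx3 and Olig3 were neural tube markers too, so a cell could enter without a Wnt1 UMI. The share of the subset in which Cre acts was not tested. In this subset Cyp26b1 had 18 UMIs in WT (105 CPM, 62.4 to 166) and 48 in KO (245 CPM, 181 to 325), a log2 ratio of 1.22 (0.41 to 2.09). It was at percentile 99.6 of 2672 genes, of which 1.24% were higher in KO past a log2 ratio of 1. The ratio was 1.91 (0.86 to 3.12) with the stricter gate but 0.73 (−0.72 to 2.25) with gates on thinned cells, on 8 and 11 UMIs in 42 WT and 28 KO cells. After thinning, 4.88% (1.34 to 12.0) of WT and 6.98% (2.60 to 14.6) of KO dorsal cells had a Cyp26b1 UMI, and the highest cell held 4 UMIs in WT and 7 in KO.

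Cyp26b1 was uneven among neural tube-like cells. Hox genes of higher group number are used further back in the body, and neural tube-like cells were sorted by their Hox UMIs. A Hox UMI does not by itself place a cell, since 16.5% of WT and 20.5% of KO erythroid-like cells had UMIs of groups 1 to 3 alone and 16.5% and 14.1% had one of groups 4 to 9, at a median of 1997 and 2431 UMIs per cell, beside 1553 and 1693 in neural tube-like cells. Cells with UMIs of Hox groups 1 to 3 and none further back had 320.3 CPM of Cyp26b1 (275 to 371) in WT and 365 (320 to 415) in KO. Cells with a UMI of groups 4 to 9 had 94.97 CPM (73.7 to 120.4) and 99.0 (74.4 to 129). The log2 ratio of the first over the second was 1.75 (1.34 to 2.18) in WT and 1.88 (1.45 to 2.34) in KO, and it was 1.71 and 2.33 with the Hox classes set on thinned cells. By the most posterior group with a UMI, the level was highest at group 3 in both libraries, at 398 CPM in WT and 405 in KO, and lowest at groups 6 to 9, at 70.6 and 45.7. The KO over WT ratio inside these Hox classes was 0.19 (−0.10 to 0.48) in the first and 0.06 (−0.48 to 0.60) in the second, both including 0.

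Crabp1 followed the same direction with a smaller step, and Crabp2 the reverse. In neural tube-like cells Crabp1 was at 3688 CPM (3531 to 3850) with Hox groups 1 to 3 alone and 2020 (1917 to 2126) with groups 4 to 9 in WT, a log2 ratio of 0.87 (0.77 to 0.97). In KO the levels were 3801 and 2232 CPM (0.77, 0.67 to 0.87). Crabp2 was at 607 and 744 CPM in WT (−0.29, −0.49 to −0.10) and at 758 and 869 in KO (−0.20, −0.38 to −0.01). With the Hox classes set on thinned cells, the Crabp2 ratio was −0.30 (−0.53 to −0.07) in WT and −0.07 (−0.31 to 0.17) in KO, where the interval then included 0. Aldh1a2, which makes the substrate of the degrading enzymes, was at 19.5 and 48.9 CPM in WT (−1.33, −2.45 to −0.32, on 11 and 35 UMIs) and at 36.2 and 31.2 in KO (0.21, −0.75 to 1.21), so its WT slope was not seen in KO and the difference between the libraries was not tested. Of neural tube-like cells, 35.1% in WT and 24.6% in KO had a UMI of groups 4 to 9, and 26.1% and 16.5% after thinning. In thinned neural tube-like cells, 93.0% of the WT and 89.6% of the KO cells with a Cyp26b1 UMI had a Crabp1 UMI too, against 76.3% and 79.0% of all such cells.

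**Figure D3:**
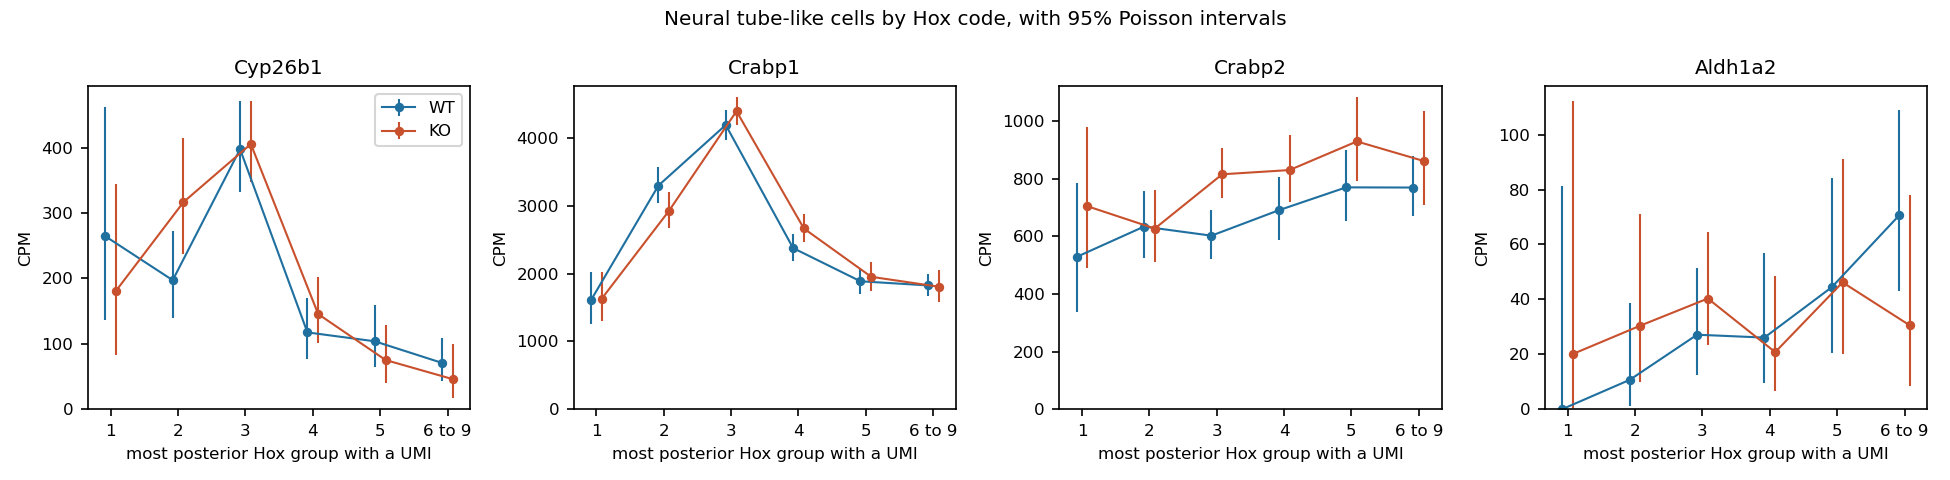
CPM of Cyp26b1, Crabp1, Crabp2 and Aldh1a2 in neural tube-like cells by the most posterior Hox group with a UMI, with 95% Poisson intervals for WT and KO. Cyp26b1 and Crabp1 peak at Hox group 3 (398 and 405 CPM of Cyp26b1, 4193 and 4396 CPM of Crabp1) and are lower at the groups of higher number.

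Cyp26a1 and Cyp26c1, the other degrading enzymes, were close to the detection limit. Cyp26a1 had a UMI in 0.853% of WT and 0.860% of KO cells. Its best covered class was endothelial-like, with 8 UMIs in WT (7.95 CPM, 3.43 to 15.7) and 16 in KO (16.5 CPM, 9.44 to 26.8), and no class was above the erythroid-like level (2.79 and 3.94 CPM) beyond both intervals. Cyp26c1, with 2 UMIs in WT and 4 in KO, had a UMI in no more than 1 cell of any named class, so neither gene could be placed in a cell type at this depth. Dhrs3, the enzyme that returns retinal to retinol, had 16 UMIs in WT and 9 in KO endothelial-like cells (15.9 CPM, 9.09 to 25.8, and 9.29, 4.25 to 17.6) and 10 and 5 in splanchnic mesoderm-like cells (12.4 and 9.57 CPM). Both WT classes were above the erythroid-like interval, where no Dhrs3 UMI was seen, and no KO class was.

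Crabp1, the cytosolic binding protein, was highest in neuron-like and migrating NCC-like cells. Neuron-like cells held 1090 UMIs in 89 WT cells (7128 CPM, 6711 to 7564) and 683 in 81 KO cells (4109.8 CPM, 3807 to 4429.9). Migrating NCC-like cells, which express Sox10, had 5464 CPM (5281 to 5653) in WT and 4689.9 (4499 to 4887) in KO. Arch mesenchymal NCC-like cells had 3371 (3055 to 3711) and 2394 (2186 to 2617), and neural tube-like cells 2597 (2526 to 2670.2) and 2787 (2715 to 2861). The neuron-like and migrating NCC-like classes traded places between the libraries, though not when cells that passed several gates were assigned to their highest class (neuron-like 4568 and migrating NCC-like 4474 CPM in KO). So did the arch mesenchymal NCC-like and neural tube-like classes. Surface ectoderm-like cells were at 1887 and 1883 CPM. Cardiac muscle-like (540.4 and 645 CPM), endothelial-like (537 and 608) and somite-like cells (512 and 669.5) stood at or near the erythroid-like level, which is read as background.

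The sign of the Crabp1 ratio differed between classes. KO was lower in neuron-like cells (log2 ratio −0.79, −0.93 to −0.66), arch mesenchymal NCC-like cells (−0.49, −0.69 to −0.30) and migrating NCC-like cells (−0.22, −0.30 to −0.14). It was higher in neural tube-like cells (0.10, 0.05 to 0.16), and in the dorsal subset of these (3508 CPM in WT and 4841 in KO, 0.46, 0.32 to 0.61). The neuron-like value was at percentile 4.22 of 2369 genes, whose central 90% ran from −0.75 to 0.73, and none of the 13 Crabp1 ratios passed 1. The other values lay inside the central 90% of the genes of their class, at percentile 12.7 in arch mesenchymal NCC-like, 28.8 in migrating NCC-like, 70.4 in neural tube-like and 87.4 in the dorsal cells. The 4 ratios of ordered classes whose interval lay above 0 included cardiac muscle-like (0.26), endothelial-like (0.18) and somite-like cells (0.39), where the level itself was near background. The endothelial-like interval included 0 under each of the 3 other gates, the somite-like one under 2 of them and the neural tube-like one with the stricter gate (0.06, −0.0076 to 0.13). The negative neuron-like ratio was larger, −1.08, with the stricter gate. Under it 76 WT cells held 1203 Crabp1 UMIs, beside 1090 in 89 cells, so some of these cells were not in the class before. The NCC-like ratios were less firm: with gates applied to thinned cells they were −0.04 in migrating and 0.13 in arch mesenchymal NCC-like cells.

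Make-up moved with these values too. Neuron-like cells with a Hox UMI of groups 4 to 9 had 10849 CPM of Crabp1 in WT and 4976 in KO, those with groups 1 to 3 alone 6364 and 3879, and those with no Hox UMI 2760 and 3431. The summed neuron markers, Tubb3 and Elavl4 among them, were 4624 CPM in WT and 4453 in KO. Crabp1 was uneven from cell to cell. After thinning, the median neuron-like cell had 4 Crabp1 UMIs in WT and 2 in KO, and the top 10% of cells held 39.6% and 45.1% of them. Having no Hox UMI does not mark a cell as Hox-negative: thinning raised the share of neural tube-like cells without one from 37.8% to 49.9% in WT and from 46.2% to 63.2% in KO. Arch mesenchymal NCC-like cells with no Hox UMI were 32.0% of the class in WT and 63.8% in KO, at 2076 and 2038 CPM of Crabp1, while those with Hox groups 1 to 3 alone had 4539 and 2537 and those with groups 4 to 9 had 3365 and 4079 (17 and 9 cells). In migrating NCC-like cells the levels were 4329 and 2420 CPM with no Hox UMI, 8265 and 6049 with groups 1 to 3 alone, and 4691 and 5193 with groups 4 to 9. The part of these shares in the Crabp1 ratios was not tested.

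**Figure D4:**
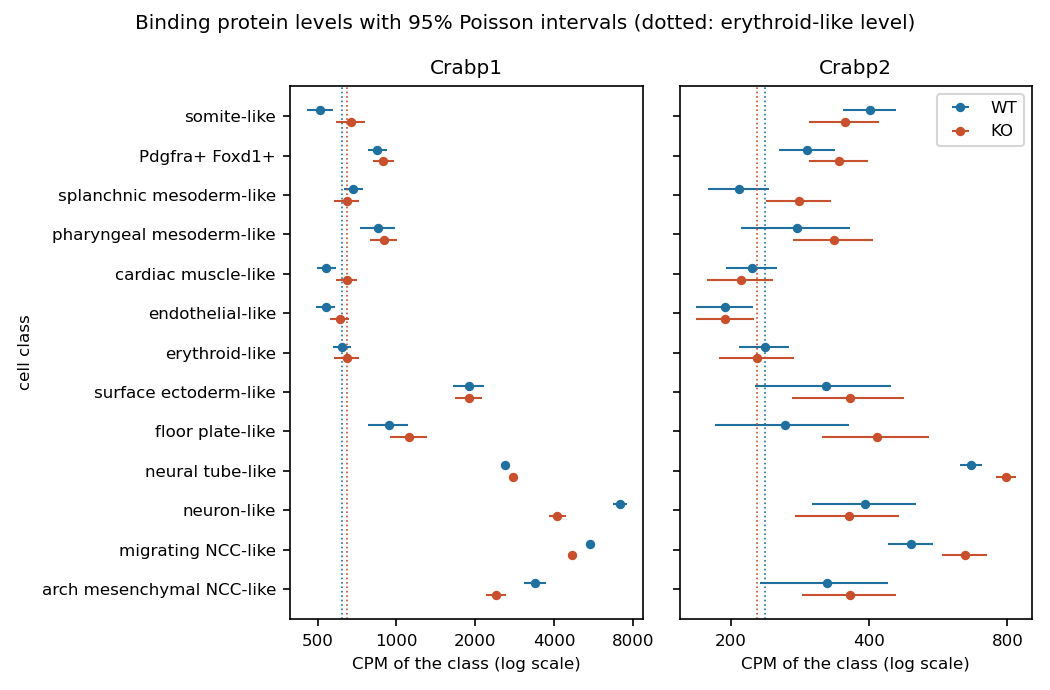
CPM of Crabp1 and Crabp2 by cell class on log axes, with 95% Poisson intervals and the erythroid-like level dotted. Crabp1 ranges from 512 to 7128 CPM in WT across classes, with neuron-like cells at 7128 in WT and 4109.8 in KO, while Crabp2 stays between 194 and 795 CPM in both libraries.

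Crabp2, which carries retinoic acid to its nuclear receptors, was highest in neural tube-like cells, at 666 CPM (629.7 to 703) in WT and 795 (757 to 835) in KO. Migrating NCC-like cells were second, at 493 (439 to 551) and 645 (576 to 721). Somite-like cells were at 401 (350.0 to 458) and 354 (296 to 421), and in WT overlapped the migrating NCC-like and the neuron-like cells (392 CPM). Under the gate used, the KO over WT ratio was above 0 in 9 of 13 classes, with 4 intervals above 0 and none below. Each of the 4 lay inside the central 90% of the genes of its class. They were neural tube-like (0.26, 0.15 to 0.36, percentile 85.6), migrating NCC-like (0.39, 0.16 to 0.62, percentile 85.8), floor plate-like (0.67, 0.05 to 1.31, percentile 92.6, on 37 and 57 UMIs) and splanchnic mesoderm-like cells (0.43, 0.11 to 0.76, percentile 88.6). With gates on thinned cells the floor plate-like interval included 0 (0.56, −0.25 to 1.38). The Pdgfra+ Foxd1+ ratio, 0.23 (−0.07 to 0.52) under the gate used, was then 0.86 (0.41 to 1.31), past the upper end of its class's central 90%. It was 0.27 (0.004 to 0.53) when cells that passed several gates went to their highest class and 0.28 (−0.09 to 0.65) with the stricter gate. Among the classes under 50 cells, pharyngeal and foregut endoderm-like cells held 10 Crabp2 UMIs in the WT library and 22 in the KO library (135 and 333 CPM, 1.31, 0.17 to 2.55), past a log2 ratio of 1 as 3.3% of the 938 genes with enough UMIs were.

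The balance of the binding proteins differed by class. In classes at background, Crabp1 UMIs per Crabp2 UMI were alike, at 2.62 (2.26 to 3.04) in WT and 2.84 (2.29 to 3.54) in KO erythroid-like cells, 2.43 and 3.07 in cardiac muscle-like and 2.77 and 3.13 in endothelial-like cells. Neuron-like cells had 18.2 (14.0 to 24.0) in WT and 11.4 (8.73 to 15.1) in KO, migrating NCC-like cells 11.1 (9.86 to 12.5) and 7.27 (6.45 to 8.21), and arch mesenchymal NCC-like cells 10.4 (7.53 to 14.8) and 6.58 (5.14 to 8.52). Somite-like cells went the other way, at 1.28 (1.07 to 1.53) and 1.89 (1.52 to 2.36), below the background ratio in WT. The ratio was thus above background in neuron- and NCC-like cells of both libraries. It was lower in KO than in WT in each of these 3 classes, with intervals that did not overlap in migrating NCC-like cells and overlapped in the other two.

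Rarb, the receptor whose promoter repeat is shown above, was spread thinly. Pharyngeal mesoderm-like cells had the highest WT level, 45.7 CPM (20.9 to 86.7) on 9 UMIs, with 26.5 CPM (11.4 to 52.2) on 8 in KO. It had 61 UMIs in the neural tube-like cells of WT (31.5 CPM, 24.1 to 40.5) and 44 in those of KO (21.9 CPM, 15.9 to 29.4), and splanchnic mesoderm-like cells 33.5 (22.0 to 48.7) and 19.1 CPM (9.18 to 35.2). No class was above the erythroid-like level beyond both intervals in either library. Under the gate used, the ratio was below 0 in all 5 classes with at least 30 UMIs, from −0.81 to −0.11, and each of these intervals included 0. The −0.81 of splanchnic mesoderm-like cells, at percentile 3.47, was past the lower end of its class's central 90%. With gates on thinned cells it was −2.20 (−5.36 to −0.13) on 17 and 2 UMIs, and the interval included 0 under the other gates. The endothelial-like ratio was above 0 under the 3 other gates, at 0.13, 0.06 and 0.20, with intervals that included 0.

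**Figure D5:**
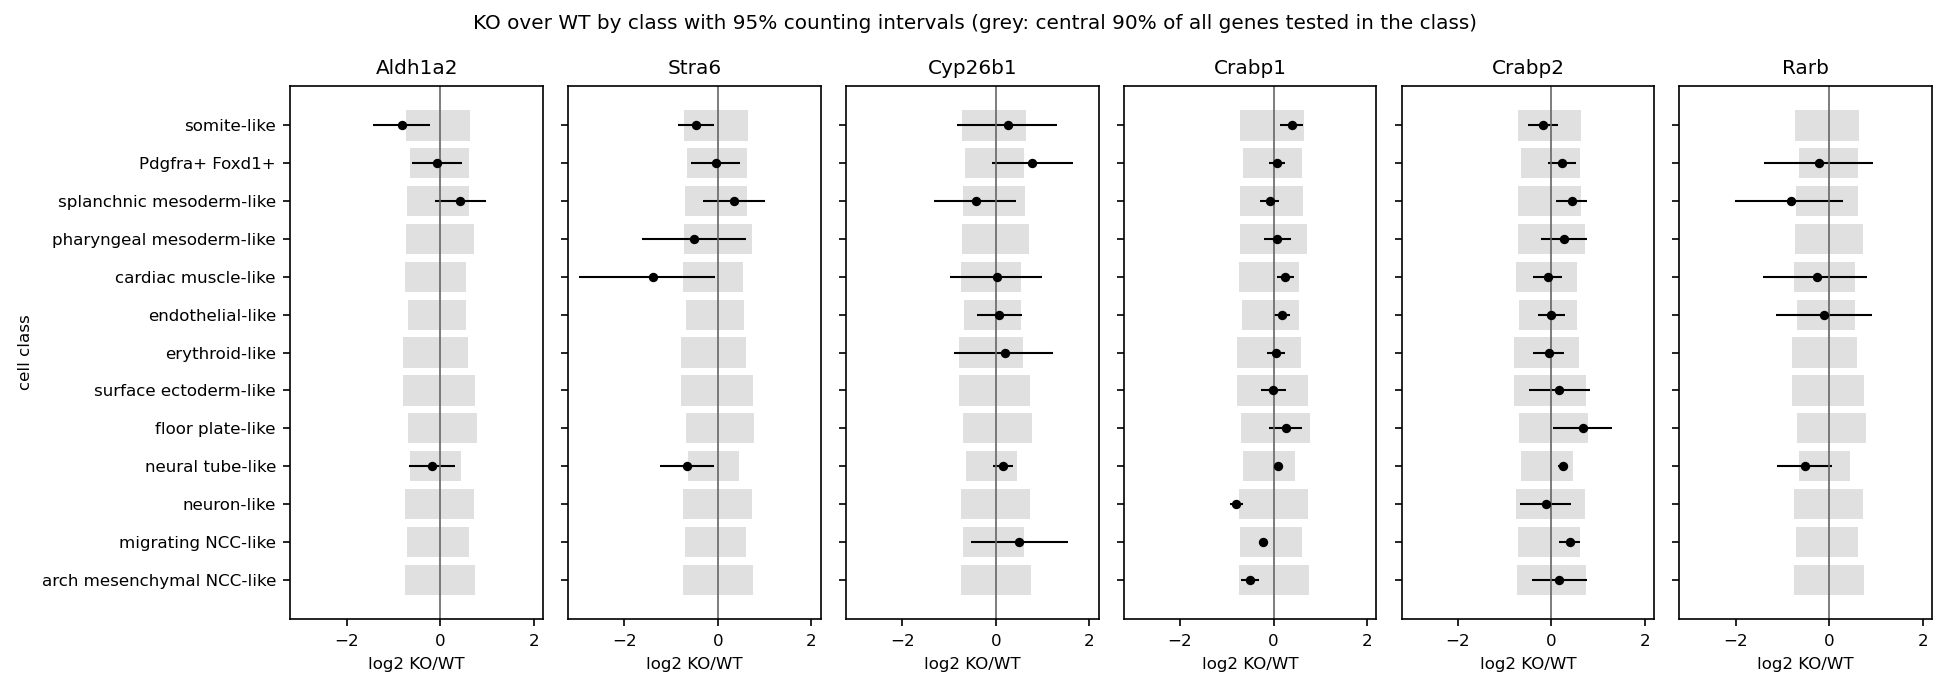
Log2 ratio of KO over WT for each member and class with at least 30 UMIs over both libraries, with 95% exact conditional intervals and, in grey, the central 90% of all genes of the class. Crabp1 ranges from −0.79 in neuron-like to 0.39 in somite-like cells, Stra6 in cardiac muscle-like cells is at −1.39, and Aldh1a2 in somite-like cells is at −0.82.

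The order of the 13 classes was alike in the libraries for some members and not for others. Spearman's rho between the WT and KO levels, given as a description over classes that share library, depth and background, was 0.93 for Crabp1, 0.82 for Crabp2, 0.77 for Stra6 and 0.68 for Cyp26b1, but 0.45 for Aldh1a2 and 0.11 for Rarb. Across the 26 points of 13 classes in 2 libraries, the levels of Aldh1a2 and Stra6 had a Pearson r of 0.76, Crabp1 and Crabp2 of 0.69, and Aldh1a2 and Cyp26b1 of 0.09. Among 10513 genes the patterns most like Aldh1a2 were those of Tbx18 (r = 0.84), Tmem132c (0.80) and Foxd1 (0.77), of which Tbx18 and Foxd1 are gate markers. Cyp26b1 was nearest to Hmgb2 (0.83), the gate marker Sox1 (0.74) and Fzd10 (0.72), and Stra6 to Grem1 (0.81), Efna2 (0.80) and Twist2 (0.79). Crabp1 was nearest to the gate marker Pax2 (0.88), to Rtn1 (0.78) and Ngfr (0.77), Crabp2 to Map7d2 (0.80), Sfrp2 (0.79) and Nap1l1 (0.74), and Rarb to Mindy4 (0.79), Mat2b (0.76) and 2410131K14Rik (0.74).

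Other genes of the pathway were listed by role. Of 53 listed, 48 were in the files and 36 had at least 200 UMIs, with a median log2 ratio of −0.00 over all cells, beside −0.06 over all genes. None of the 36 was higher in KO past 0.5 and 3 (8.33%) were lower, beside 0.666% and 3.31% of all genes. The retinol dehydrogenase Rdh11 had 376 UMIs in WT and 237 in KO (−0.53, −0.77 to −0.29). It came to −0.47 with TMM and −0.48 with median of ratios scaling, which leaves 2 genes lower past 0.5. Its relative Rdh10, the main retinol dehydrogenase of the embryo, had 762 and 727 (0.07, −0.08 to 0.21). Cyp1b1, which can also make retinal and retinoic acid, had 135 and 142 UMIs (0.21, −0.14 to 0.56), and Dhrs4 and Adh5 were at 0.21 and −0.02.

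The serum carriers stood apart. Rbp4, the retinol-binding protein that Stra6 recognises, had 628 UMIs in WT and 81 in KO (30.2 and 4.28 CPM, −2.82, −3.17 to −2.48), and Ttr, its partner in the blood, 638 and 243 (30.7 and 12.8 CPM, −1.26, −1.48 to −1.04). Both are genes of endoderm, liver and yolk sac. They were among the 10 leading genes of the small pharyngeal and foregut endoderm-like class, where Rbp4 had 61 UMIs in 8 of 33 WT cells and 0 in 24 KO cells (3 counts, the limit used for a count of 0, would be 45.5 CPM), and Ttr had 42 UMIs in 7 WT cells and 6 in 1 KO cell. The 20 cells with most Rbp4 held 45.5% of its UMIs in WT and 54.3% in KO, and the 20 cells with most Ttr held 29.5% and 48.6% of its UMIs. In the cells that passed no gate, Rbp4 had 455 UMIs in WT and 58 in KO.

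Of the storage and transport genes, Fabp5, which also binds retinoic acid, was at 0.23 (0.20 to 0.27) and Dgat1 at −0.41 (−0.69 to −0.12). Of the receptors, Rara was at −0.31 (−0.40 to −0.22), Rxra at 0.37 (0.26 to 0.48), Rxrb at −0.01 and Rarg at 0.04. The 10 co-regulators ran from −0.27 to 0.21 with a median of 0.11, among them Ncor1 (0.18), Crebbp (0.10), Nsd1 (0.21) and Nrip1 (0.17). The 12 known response genes with enough UMIs ran from −0.32 to 0.24 with a median of −0.14, among them Nr2f2 (−0.20), Nr2f1 (−0.10), Meis2 (0.22) and Meis1 (−0.19).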

How the data were processed

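Cells of the WT and KO dissections were profiled by 10x Genomics 3′ single-cell RNA-Seq after MULTI-Seq barcoding. Per the submitters' notes and the methods, the authors used Cell Ranger 1.3.1, Scanpy and mm10 (the methods name a human genome, and the gene symbols are mouse), removed cells under 200 or over 6000 UMIs, genes in fewer than 3 cells and mitochondrial and ribosomal UMIs, and deposited scores, which are the square roots of counts scaled to the same total in every cell (the squares sum to 1641 in each). UMIs were recovered here by dividing each squared value by the smallest nonzero square of its cell, and 100% of nonzero values were whole within 0.01. The cells held 533 to 4464 UMIs in WT and 828 to 4588 in KO, all within the stated limits. The methods name DoubletFinder and the upper UMI limit for excluding doublets, and no others were removed here.

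Cell classes were set by marker lists. A cell entered a class with a minimum of 2 to 50 UMIs, by class, over at least 2 or 3 of its markers, and these minimums were set after seeing the data. The stricter gate raised the minimum of every class by 1 UMI at once, so cells that had passed several gates could then enter a single class. Cardiac muscle-like cells of WT, for example, went from 480 to 581. The members and all lists were chosen with earlier results of these data known. Class names are rebuilt and may differ from those of the study. The gate on Pdgfra and Foxd1 is named by its genes, and the macrophage list was not gated.

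Levels carry exact Poisson, ratios exact conditional, and shares of cells exact Clopper-Pearson 95% intervals, which cover counting error only. With 1 library per genotype no count model was fitted and no p-value is given. Ratios were set against all genes with at least 200 UMIs (30 within a class), and a log2 ratio of 0.5 (1 within a class) was the limit for naming. In those ratios over all genes 0.5 UMIs were added to each library. For thinned values every cell was drawn down to 1000 UMIs, leaving out 1361 WT and 125 KO cells. All 9 members were named, with the 3 genes most like each by Pearson r of log2(CPM + 10), the pathway genes past the limit and up to 4 others per list with most UMIs. Not every gene that this rule names is reported here. Alternatives were other scalings, cell subsets, thinning, class weights, gates and minimums. Scripts (Python 3.11.15, numpy 2.4.6, scipy 1.17.1, pandas 2.3.3) were tested on simulated data. Promoters are from RefSeq and gene positions from GENCODE vM21.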

Additional observations from a re-analysis of the deposited data

Results flagged for a closer look

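Crabp1 moved in opposite directions between classes. Its log2 ratio between the libraries, KO over WT, was above 0, beyond its counting interval, in cardiac muscle-like (0.26), endothelial-like (0.18), neural tube-like (0.10) and somite-like cells (0.39), and below 0 in migrating NCC-like (−0.22), arch mesenchymal NCC-like (−0.49) and neuron-like cells (−0.79). With 1 library per genotype, the difference between the classes was not tested. With the gates applied to thinned cells, the ratio was 0.13 in arch mesenchymal NCC-like, −0.04 in migrating NCC-like and −0.089 in endothelial-like cells. In cardiac muscle-, endothelial- and somite-like cells the Crabp1 level was near that of erythroid-like cells, whose own ratio was 0.06 (−0.13 to 0.26).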

How the results depend on the processing

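With 1 library per genotype, no difference has a replicate check, and the precision is that of counting. No paired analysis was possible because each genotype had 1 library. Ratios over all cells rest on make-up as well as on level. In the neural tube-, floor plate-, neuron- and NCC-like classes summed, the log2 ratio (KO over WT) came to −0.14 for Crabp1, opposite in sign to the 0.13 over all cells, −0.53 for Stra6, 0.27 for Crabp2 and 0.35 for Dhrs3. In the other gated classes together it was 0.19 for Crabp1, 0.12 for Crabp2 and 0.54 for Cyp26a1 (these groupings, and the other scalings of the pathway list, were chosen after seeing the data). With KO classes weighted to the WT make-up, Crabp1 was at 0.069, Crabp2 at 0.25 and Cyp26b1 at 0.073, and the mean of squared values gave 0.071 for Cyp26b1, against 0.16. TMM scaling gave 0.19 and 0.38 for Crabp1 and Crabp2, median of ratios scaling gave 0.19 and 0.37, and thinned cells gave 0.36 for Crabp2. The cause of each was not tested.

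Gating on thinned cells, which have fewer marker UMIs, turned the Crabp1 ratio to −0.089 in endothelial-like and to 0.13 in arch mesenchymal NCC-like cells. The highest class stayed the same for 14 of 16 pairs of member and library under that gate and for 13 of 16 under the stricter gate, and the highest class of Aldh1a2 in KO changed under each. With Hox classes set on thinned cells, the Crabp1 ratio of cells with Hox groups 1 to 3 alone over cells with groups 4 to 9 in WT was 0.97. With no UMI minimum, more sparse genes entered, 1 pathway gene was higher and 7 were lower past the limit, and the central 90% of ratios over all genes was 1.86 wide instead of 0.73. The other 70 values over all cells, along the Hox axis and for the lists stayed within their counting interval or, for counts, within 1.5 times, as did 193 values of single classes. A further 13 values of single classes moved by more than that, some with a change of sign where the interval had included 0, such as Stra6 in pharyngeal mesoderm-like cells (−0.52, and 1.40 with gates on thinned cells) and Cyp26b1 in migrating NCC-like cells (0.50, and −0.52 with the stricter gate).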
